A study of Mus musculus with 2 samples.

Results

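The collagen genes were described in single cells of mouse back skin at postnatal day 2. They are the 42 genes whose symbol reads Col, a number, a and a number, of 56694 genes in the files; 44 symbols fitted this form, and Col17a1 and Col7a1, which serve the hemidesmosome and the anchoring fibrils of the epidermis, were left out. The rule used the names alone and no measured value, but it was set with earlier results of these data known. Of the 42 genes, 38 had at least 20 UMIs (unique molecular identifiers, each a counted RNA molecule) over all cells kept, and none was at 0 UMIs. The 4 below that limit were Col9a1 with 14 UMIs, Col22a1 with 14, Col6a4 with 11 and Col10a1 with 6.

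The study deposited 2 libraries, 1 per genotype. The control library came from floxed littermates without Cre (genotype WT in the labels), and the other from Gli2EKO animals (Gli2_EKO in the labels), in which K14Cre deletes floxed Gli2, a transcription factor of the Hedgehog pathway. The Keratin 14 promoter drives the Cre in keratinocytes, so fibroblasts of the Gli2EKO skin are not its target. Collagenase was used to digest the dermis away, and the remaining epidermal whole mounts were dissociated with trypsin. The fibroblasts described here are therefore those that stayed with the epidermis and its hair follicles (HFs). How many mice were pooled per library is not given in the sources used here. With 1 library per genotype, no difference between genotypes has a replicate check. Levels are CPM, the usual scaling of the UMIs of a gene by all UMIs of its cell class, and every interval given is a 95% interval that covers counting error only. The assay counts the polyA end of each molecule, so CPM values were not divided by transcript length. Whether all genes are captured equally well was not tested, so comparisons of level between different genes are of counts only.

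Collagens are proteins of the extracellular matrix whose chains wind into a helix, and each chain has its own gene. Fibrillar collagens, such as types I, III and V, form the fibres of the dermis and are made mainly by fibroblasts. Type IV chains form the network of the basement membrane that separates epidermis and hair follicle from the dermis. Type VI forms beaded filaments, fibril-associated types decorate the fibres, multiplexins lie in the basement membrane zone, and membrane-spanning types stay anchored in the cell surface. The dermal papilla is the cluster of specialised fibroblasts that signals to the hair follicle.

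The type IV genes are arranged in head-to-head pairs, and most of the collagens that were higher in keratinocytes than in fibroblasts belong to them. In GRCm39, the annotated ends of Col4a4 and Col4a3 on chromosome 1 overlap (gap of -159 bases), as do those of Col4a1 and Col4a2 on chromosome 8 (gap of -356 bases). Col4a6 (chrX:139948399-140257072, minus strand) and Col4a5 (chrX:140258354-140472231, plus strand) are 1281 bases apart. Both genes of this last pair had their highest level in the same keratinocyte class, as did the genes of the other pairs. For Col4a6, the lead over the next class was within counting error in control (log2 0.07, -0.17 to 0.32) and in Gli2EKO (0.29, -0.04 to 0.61). The 250 bases upstream of Col4a5 and of Col4a6 hold no annotated exon and are printed 5′ to 3′ on the strand of the gene. They come from the GRCm39 genome, and capitals mark a CCAAT box (CCAAT or ATTGG) in the first and a GC box (GGGCGG or CCGCCC) in the second.
Col4a5, chrX:140258104-140258353: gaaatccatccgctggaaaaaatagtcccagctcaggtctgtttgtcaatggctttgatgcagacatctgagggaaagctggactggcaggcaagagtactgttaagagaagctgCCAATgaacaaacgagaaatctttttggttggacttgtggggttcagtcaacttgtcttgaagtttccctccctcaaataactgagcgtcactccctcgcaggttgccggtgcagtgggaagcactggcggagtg
Col4a6, chrX:140257073-140257322: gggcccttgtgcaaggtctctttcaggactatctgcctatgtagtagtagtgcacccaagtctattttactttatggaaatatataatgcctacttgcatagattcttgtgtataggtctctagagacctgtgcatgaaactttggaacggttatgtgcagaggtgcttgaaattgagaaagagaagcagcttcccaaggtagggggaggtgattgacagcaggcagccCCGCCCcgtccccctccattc
Neither window held a TATA box (TATAAA or TTTATA). Over 27025 windows of 250 upstream bases of mouse genes from RefSeq (GRCm38.p6), 34.5% held a CCAAT box on either strand, 32.9% a GC box and 13.0% a TATA box. Of the 33 collagen genes with such a window, 10 held a CCAAT box, 20 a GC box and 4 a TATA box. These matches describe letters and are not shown to be bound.

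The control file held 6326 barcodes with 71021773 UMIs and the Gli2EKO file 4296 barcodes with 48866478 UMIs, no barcode being shared. After the limits on detected genes, mitochondrial UMIs and doublets, 4464 control and 3121 Gli2EKO cells were left. Clustering without any collagen gene among the variable genes gave 852 control and 650 Gli2EKO fibroblast-like cells and 3324 and 2317 keratinocytes. All 10 keratinocyte markers were higher in keratinocytes than in fibroblast-like cells in both libraries, and 9 of 10 fibroblast markers were higher in fibroblast-like cells, the exception being Fbln1, at 53.1 against 56.6 CPM in control and 61.0 against 64.2 CPM in Gli2EKO. Fibroblast-like cells fell into 9 sub-clusters, of which 2 (199 control and 158 Gli2EKO cells) were called papilla-like, all 10 dermal papilla markers being higher there in both libraries. The classes were named from these same marker lists, so the marker directions were largely set by the naming and do not check it. Keratinocytes fell into 11 classes, 10 named from their markers. The class without a name (490 and 260 cells) pooled clusters 5 (282 and 167 cells) and 8 (208 and 93 cells). Both had Tagln and Acta2, genes of contractile cells, among their leading genes and scored highest for the outer root sheath (ORS) class HF1 ORS. Cluster 5 was also led by Ube2c and Nusap1. Tagln led the HF1 ORS-like class too, so this gene was not particular to the class without a name. Gli2 stood at 83.2 CPM (80.5 to 85.8) in control and 84.8 CPM (81.7 to 88.0) in Gli2EKO keratinocytes; the deleted exons are not given in the sources used here, and the polyA end may lie outside them, so this does not check the genotype labels.

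Collagen UMIs made up 3.45% (3.44 to 3.46) of the UMIs of control fibroblast-like cells and 2.95% (2.94 to 2.96) in Gli2EKO. Single fibroblast-like cells ranged from 0.227% to 16.7% around a median of 2.29% in the control library, and from 0.217% to 13.4% around 1.93% in Gli2EKO. In keratinocytes the share was 0.108% and 0.0811%, and in immune-like cells, which are not known to make fibrillar collagen, it was 0.0273% and 0.0143%. Schwann-like (0.967% and 1.23%), smooth muscle- and pericyte-like (0.882% and 0.970%) and endothelial-like cells (0.660% and 0.239%) lay between them. Among fibroblast-like cells, sub-cluster 0, led by Ly6a and Fabp4, held the highest share (5.69% and 5.38%) and the papilla-like cells a low one (0.911% and 1.00%).

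**Figure D1:**
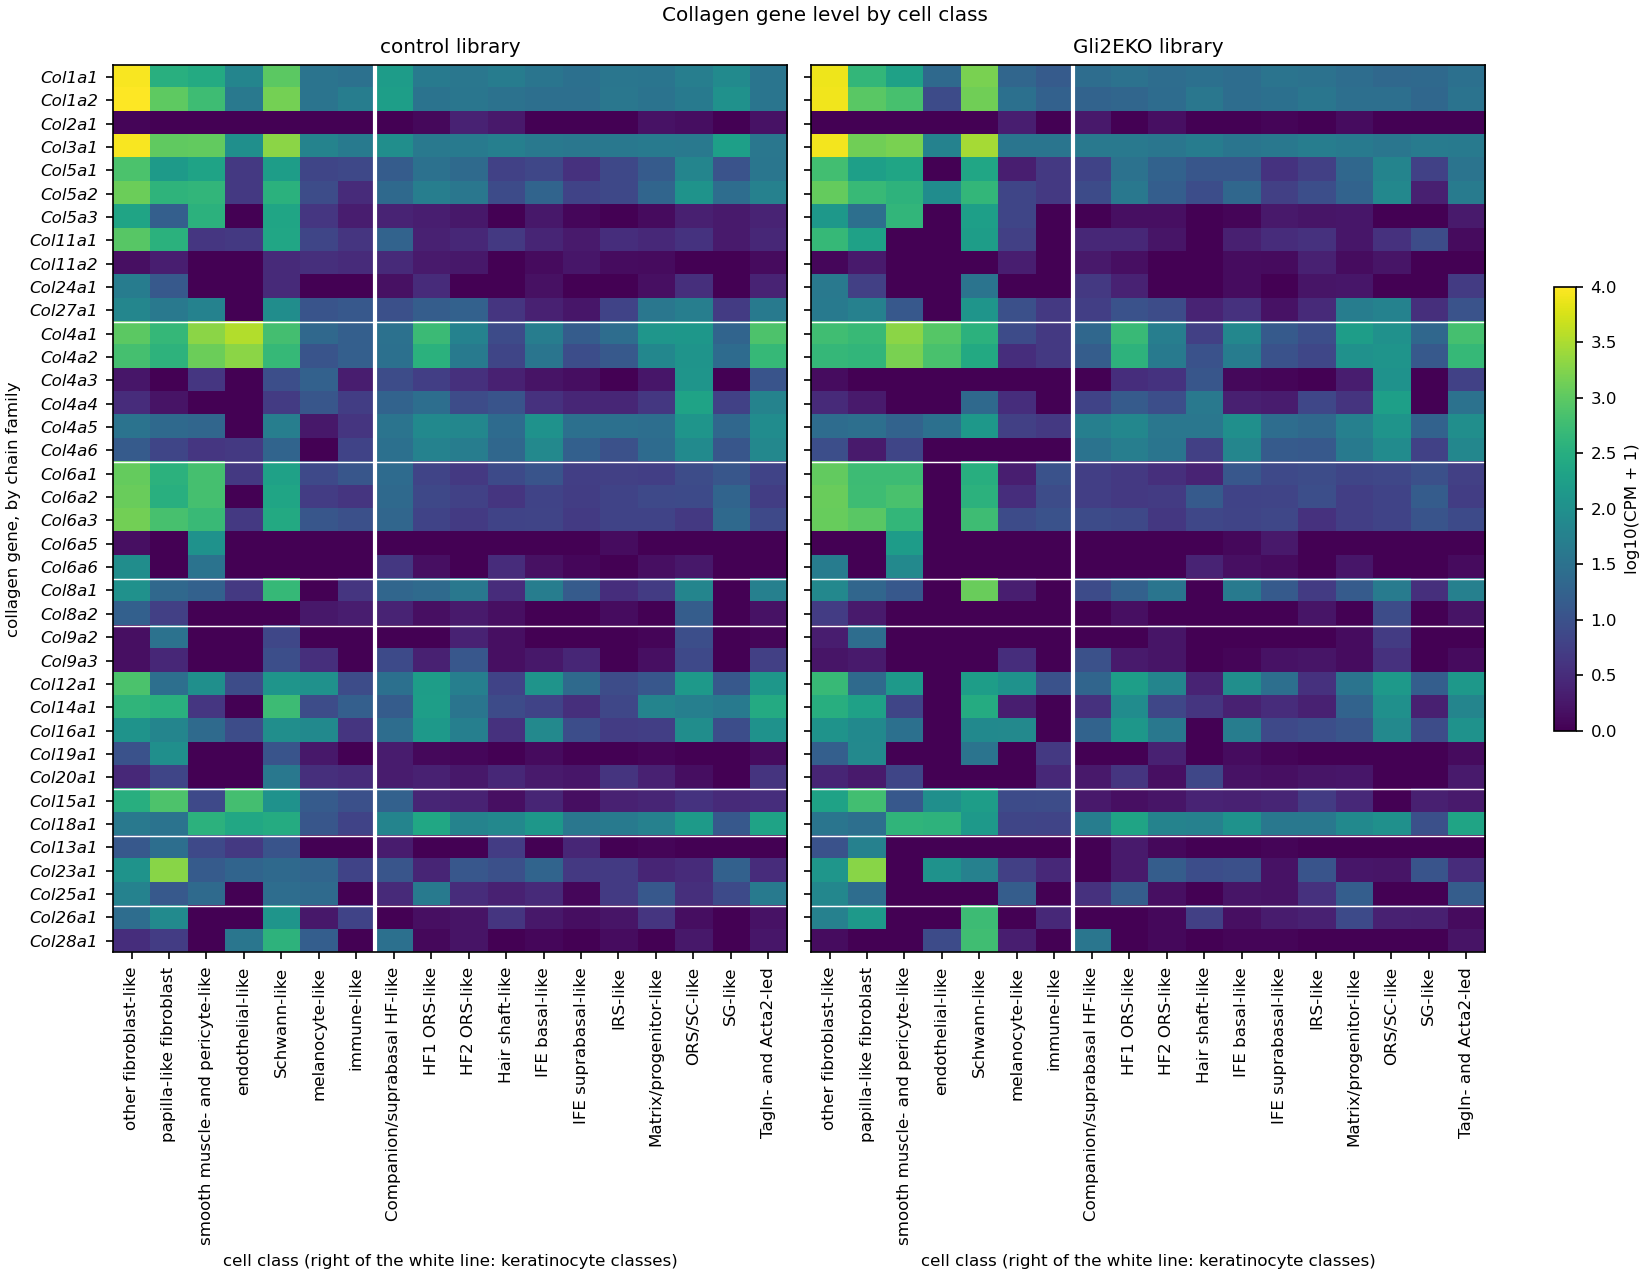
Level of each collagen gene (rows, by chain family) in each cell class and library (columns), as log10 of CPM plus 1, with the colour scale ending at 4. Most fibrillar and beaded filament chains are highest in fibroblast-like cells, and type IV chains also stand out in endothelial-like, smooth muscle- and pericyte-like and several keratinocyte classes.

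The first comparison asked which collagen genes belong to fibroblasts and which to keratinocytes in this skin. With at least 20 UMIs over both classes in each library, 35 collagen genes could be compared, and 23 of them (65.7%) were at least 4-fold higher in fibroblast-like cells in both libraries. Over all 16790 genes compared in the same way, 10.3% were. In the other direction, 2 of 35 (5.71%), Col4a3 and Col4a4, were at least 4-fold higher in keratinocytes in both libraries, against 8.21% of all genes. The 7 genes with too few UMIs were the 4 named above and Col6a5, Col2a1 and Col11a2.

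Fibrillar chains carried 79.0% of the collagen UMIs of control and 79.2% of those of Gli2EKO fibroblast-like cells. Col1a1 and Col1a2, the chains of type I collagen, and Col3a1, the chain of type III, were the 3 highest collagen genes. Col1a2 stood at 8827 CPM in control and 7153 CPM in Gli2EKO fibroblast-like cells, against 40.7 and 26.9 CPM in keratinocytes. Col3a1 stood at 7791 and 7334 CPM against 46.1 and 39.1 CPM, and Col1a1 at 7784 and 6681 CPM against 43.7 and 28.0 CPM. On the log2 scale, the 3 genes were 7.40 to 8.05 higher in fibroblast-like cells. Of the 9 fibrillar genes that could be compared, 8 were past 4-fold in both libraries. Col5a2 and Col5a1, the chains of type V collagen that co-assembles with type I, reached 1115 and 629 CPM in control fibroblast-like cells. Col11a1, a type XI chain better known from cartilage, reached 830 CPM in control fibroblast-like cells against 2.51 CPM in keratinocytes, the widest log2 difference among the genes compared there (8.37, 8.10 to 8.64). Col27a1, a minor fibrillar chain, was the gene that missed the limit, at 62.5 against 19.4 CPM in the control library and 44.4 against 10.2 CPM in Gli2EKO.

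All 4 beaded filament genes that could be compared were past 4-fold in both libraries. Col6a3, Col6a2 and Col6a1, the chains of the common type VI filament, lay close together at 1280, 1083 and 1022 CPM in control fibroblast-like cells and at 1128, 1108 and 1005 CPM in Gli2EKO. In keratinocytes they were between 5.39 and 6.73 CPM in both libraries. Col6a6, an alternative type VI chain, was at 74.3 and 40.0 CPM in fibroblast-like cells and at 0.498 and 0.298 CPM in keratinocytes.

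Of the 7 fibril-associated genes compared, 4 were past the limit in both libraries, namely Col12a1, Col14a1, Col19a1 and Col9a2. Col12a1 and Col14a1, whose chains bind the surface of type I fibres, were at 612 and 400 CPM in control fibroblast-like cells, but also at 72.4 and 77.5 CPM in control keratinocytes. Col16a1, at 106 against 54.9 CPM in the control library, was less than 4-fold apart. The membrane-spanning chains Col23a1 and Col13a1 were past the limit in both libraries and Col25a1, of the same family, was not in the control library (50.8 against 13.5 CPM). Of the 2 multiplexins, Col15a1 was higher in fibroblast-like cells than in keratinocytes (398 against 2.21 CPM in control). It was not particular to them, as the few endothelial-like cells held 636 CPM in control and 95.5 CPM in Gli2EKO. Col18a1, the precursor of endostatin, was higher in keratinocytes (39.3 against 109 CPM in control and 34.3 against 93.6 CPM in Gli2EKO).

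The type IV chains split between the cell types. Col4a1 and Col4a2, the chains present in nearly all basement membranes, were at 894 and 611 CPM in control fibroblast-like cells and still at 205 and 135 CPM in keratinocytes. The other chains were higher in keratinocytes in both libraries. Col4a4 stood at 26.2 CPM in control keratinocytes against 1.90 CPM in fibroblast-like cells, and at 14.9 against 1.79 CPM in Gli2EKO. Col4a3 stood at 9.23 against 0.601 CPM in control and 6.16 against 0.298 CPM in Gli2EKO, from 6 and 2 fibroblast UMIs. Col4a6 (45.1 against 11.9 CPM in control, 44.0 against 6.86 CPM in Gli2EKO) and Col4a5 (62.2 against 31.0 CPM, 62.3 against 25.7 CPM) were less than 4-fold apart in at least 1 library. As a share of the collagen UMIs of a class, type IV chains made up 44.6% in control and 46.2% in Gli2EKO keratinocytes and 4.50% and 3.65% in fibroblast-like cells.

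**Figure D2:**
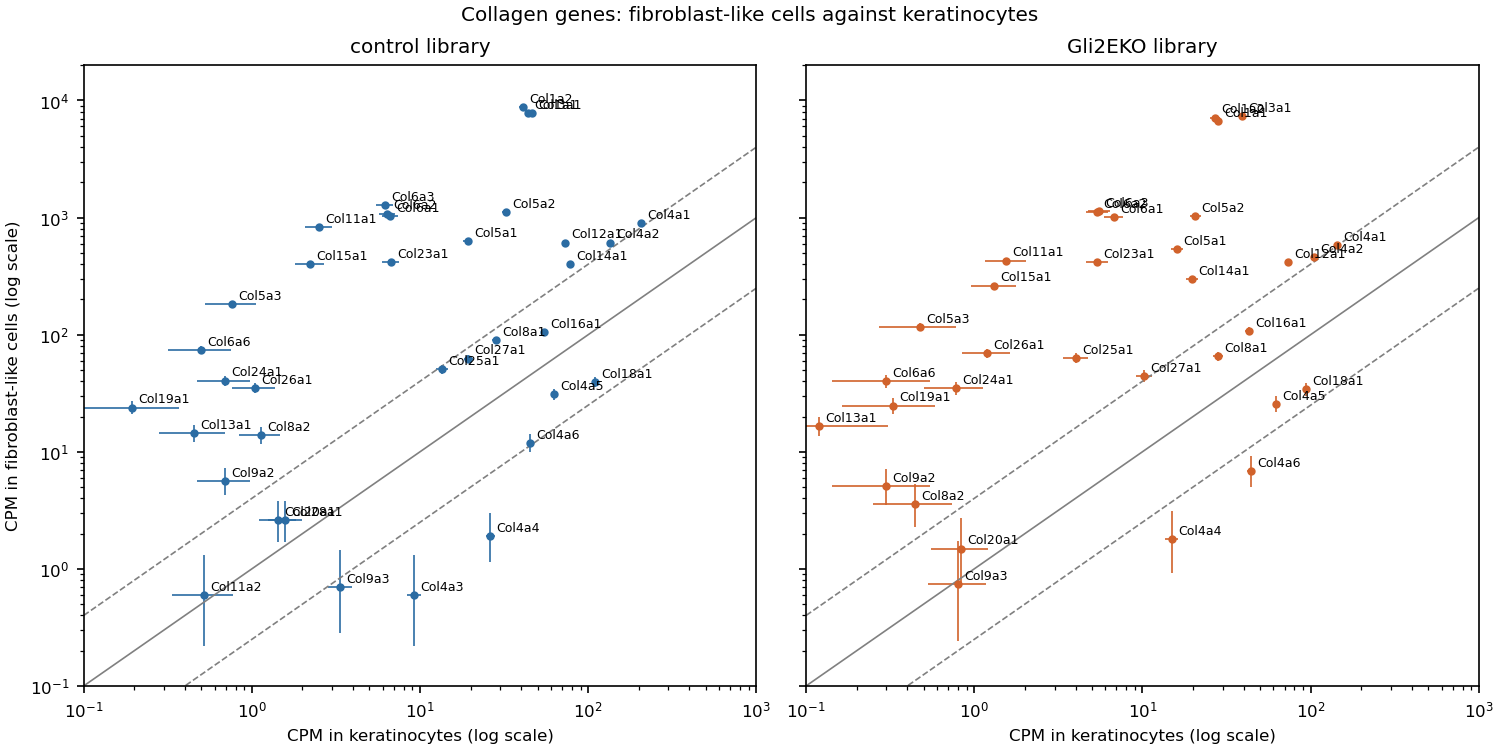
Level of each collagen gene in keratinocytes (x axis, CPM, log scale) against fibroblast-like cells (y axis, CPM, log scale) for each library; dashed lines mark 4-fold differences and genes under 3 UMIs in a class are left out. Most genes lie above the upper dashed line, and Col4a3 (control) and Col4a4 (both libraries) lie below the lower one. Col4a3, with 2 UMIs in Gli2EKO fibroblast-like cells, is not drawn for that library.

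Within the fibroblast-like cells, papilla-like cells carried a different set of collagens. Of 30 collagen genes compared, 15 (50%) were at least 2-fold lower in papilla-like than in the other fibroblast-like cells in both libraries, against 7.86% of all 12248 genes compared. At least 2-fold higher were 6 (20%, against 9.51% of all genes): Col13a1, Col15a1, Col19a1, Col23a1, Col26a1 and Col9a2.

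Col23a1, a membrane-spanning chain, was the highest collagen gene of the papilla-like cells. It stood at 1951 CPM in control and 1954 CPM in Gli2EKO papilla-like cells and at 111 and 126 CPM in the other fibroblast-like cells. With each cell thinned to 2000 UMIs, 184 of 199 control papilla-like cells (92.5%, 87.9 to 95.7%) held a Col23a1 UMI, against 11.1% of the other fibroblast-like cells and 1.09% of immune-like cells; without thinning the shares were 100%, 28.2% and 3.26%. Col9a2, a chain of type IX collagen, was at 31.1 and 26.1 CPM in papilla-like cells and at 0.482 and 1.06 CPM in the other fibroblast-like cells, and reached 8.21 and 4.04 CPM in 1 keratinocyte class, the ORS/SC-like cells. Most of the Col9a2 UMIs lay in sub-cluster 3, at 44.2 CPM in control, whereas Col13a1, Col23a1 and Col26a1 were higher in the other papilla-like sub-cluster, number 5. Col13a1 was not particular to papilla-like cells in the control library, where sub-cluster 1 held 65.1 CPM and sub-cluster 5 held 56.0 CPM. Col15a1 was at 758 and 606 CPM in papilla-like cells against 326 and 198 CPM, but reached 594.9 CPM also in the control cells of sub-cluster 8.

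Col1a1 showed the opposite order. It stood at 334 and 445 CPM in papilla-like cells and at 9286 and 7866 CPM in the other fibroblast-like cells, a log2 difference of -4.80 (-4.92 to -4.68) in control and -4.14 (-4.28 to -4.01) in Gli2EKO. Its partner chain Col1a2 was less reduced, at 1016 and 960 CPM against 10401 and 8330 CPM. The ratio of Col1a1 to Col1a2 UMIs was 0.329 (0.299 to 0.362) in control and 0.464 (0.415 to 0.518) in Gli2EKO papilla-like cells, and 0.893 (0.884 to 0.901) and 0.944 (0.932 to 0.957) in the others. Col12a1 was at 28.1 and 23.3 CPM in papilla-like cells against 730 and 491 CPM. Col6a6 had 0 UMIs in papilla-like cells of both libraries and 742 and 268 UMIs in the others. The common type VI chains were also lower, by a size that depended on the chain and library: Col6a2 was at 330 against 1235 CPM in control and 577 against 1209 CPM in Gli2EKO, and Col6a3 at 683 against 1400 CPM and 937 against 1164 CPM. Of the type IV chains, Col4a6 was at least 2-fold lower in both libraries, from 10 and 1 papilla-like UMIs, and Col4a1 (456 against 983 CPM, 499.6 against 597 CPM) was not. For Col8a1 in control papilla-like cells, 1 cell held 88.9% of the 36 UMIs. Papilla-like cells were shallower, with a median of 7886 UMIs per cell against 11947 in the other control fibroblast-like cells and 6574.5 against 10862.5 in Gli2EKO.

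**Figure D3:**
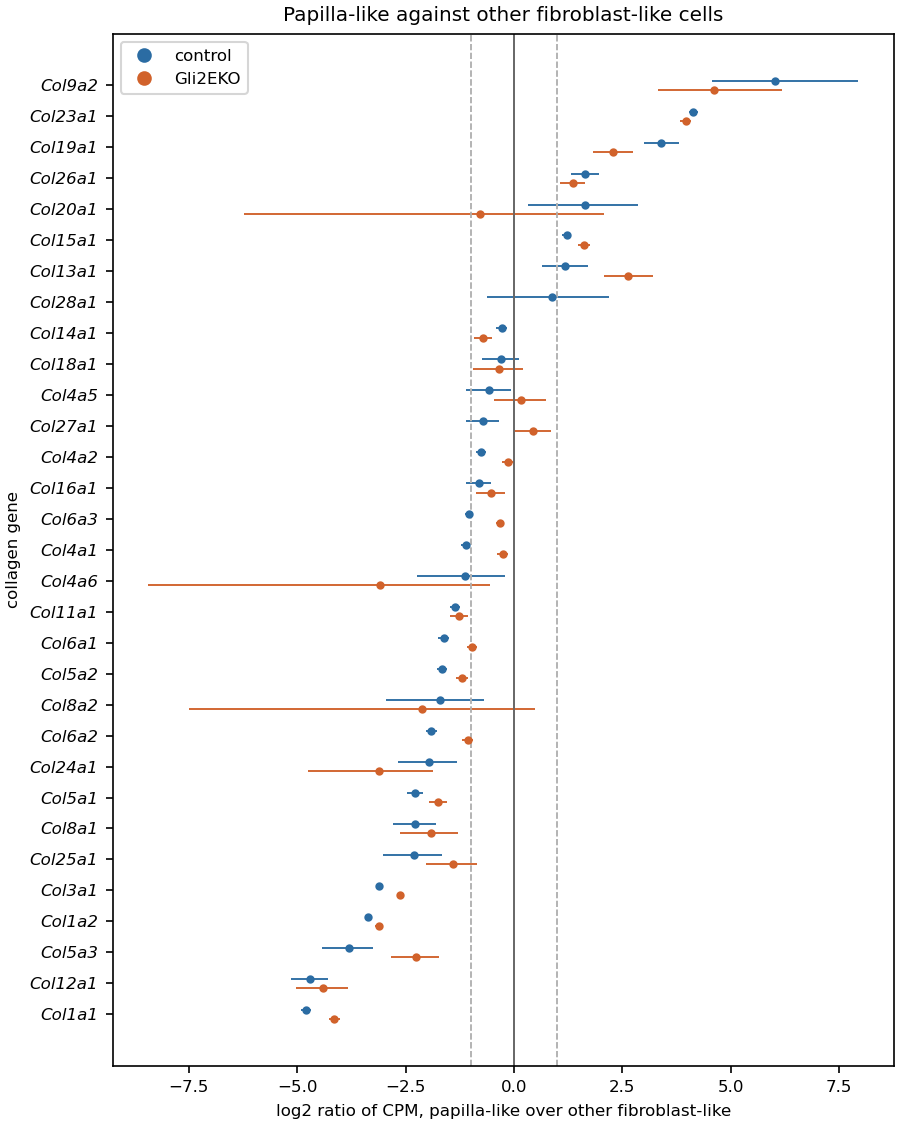
Log2 ratio of papilla-like over other fibroblast-like cells for each collagen gene and library, with 95% counting intervals; dashed lines mark 2-fold. Col9a2 and Col23a1 lie farthest to the right and Col1a1 and Col12a1 farthest to the left in both libraries; Col6a6, at 0 UMIs in papilla-like cells, is not drawn.

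The other fibroblast-like sub-clusters also differed in their collagens, as a description of clusters made without these genes. Sub-cluster 0 held the most Col1a1 (12988 and 13904 CPM) and Col3a1 (16923 and 15521 CPM). Sub-cluster 2, led by Acta2 and Ednrb, and the small sub-cluster 8 (25 control and 9 Gli2EKO cells) held the most Col11a1, at 2468 and 1777 CPM and at 4050 and 1883 CPM. Sub-cluster 1, led by Adarb2 and Prss35, held the most Col25a1 (252 and 171 CPM), and sub-cluster 6, led by Coch and Nrg1, the most Col8a1 (520 and 458 CPM).

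Reading collagens in keratinocytes requires a measure of free RNA, since RNA released by broken cells is captured with every cell. Immune-like cells served for this, with 92 control and 46 Gli2EKO cells. Col3a1 was at 43.9 and 35.0 CPM in immune-like cells and at 46.1 and 39.1 CPM in keratinocytes, a log2 difference of 0.07 (-0.37 to 0.55) and 0.16 (-0.49 to 0.90). Col1a1 was at 30.0 and 12.9 CPM in immune-like cells and at 43.7 and 28.0 CPM in keratinocytes. After thinning to 2000 UMIs, 8.65% of control keratinocytes (7.71 to 9.66%) and 7.61% of control immune-like cells (3.11 to 15.1%) held a Col1a1 UMI; without thinning the shares were 37.5% and 25%. In Gli2EKO, 5.12% of keratinocytes and 0 of 45 immune-like cells did, the latter allowing a share of up to 6.67%, and without thinning 29.0% and 15.2%. The median depths were 12434 UMIs per control keratinocyte and 9995 per control immune-like cell. Col3a1 in keratinocytes was therefore within counting error of a cell type that should lack it, and Col1a1 was above it by 0.54 (0.006 to 1.14) on the log2 scale in control and 1.12 (0.07 to 2.44) in Gli2EKO. A few cells held many of them: the 33 control keratinocytes with the most UMIs of Col1a1, Col1a2 and Col3a1 held 22.2% of these UMIs, and the median keratinocyte held 1 UMI. In the control companion-like class, 1 cell held 63.5% of the Col1a2 UMIs. Whether such cells are doublets was not tested.

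At least 100 keratinocyte UMIs over both libraries were held by 26 collagen genes. Of these, 6 (Col1a2, Col6a1, Col6a2, Col6a3, Col11a1 and Col15a1) were not above the immune-like level in both libraries, 20 were, and for 13 of the 26 the whole interval lay above it in both. These were Col4a1, Col4a2, Col4a4, Col4a5, Col4a6, Col18a1, Col12a1, Col14a1, Col16a1, Col5a1, Col5a2, Col8a1 and, barely, Col1a1. For 10 of the 13, the same keratinocyte class had the highest level in both libraries. These ranks depended on the clustering: of 40 gene and library pairs, the leading class stayed the same in 14 without doublet removal, in 17 at a clustering resolution of 0.3 and in 17 with each library clustered on its own. The ORS/SC-like class, whose markers are those of outer root sheath and stem cells, led for 5 of them, the HF1 ORS-like class for 3 and the Tagln- and Acta2-led class for 2.

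Col4a3 and Col4a4, paired chains best known from the kidney glomerulus, had uneven levels. In ORS/SC-like cells, Col4a4 stood at 212 CPM in control and 182 CPM in Gli2EKO, and the next class was at 61.1 and 40.1 CPM. Col4a3 stood at 120 and 108 CPM in ORS/SC-like cells, with the next class at 10.0 and 10.8 CPM, log2 differences of 3.59 (3.20 to 3.99) and 3.32 (2.24 to 4.65). After thinning, 29.8% of control (24.4 to 35.7%) and 29.3% of Gli2EKO ORS/SC-like cells held a Col4a4 UMI, against 1.09% of control immune-like cells; without thinning the shares were 51.5%, 54.2% and 1.09%. The ratio of Col4a3 to Col4a4 UMIs was 0.568 (0.490 to 0.657) in control ORS/SC-like cells and 0.164 (0.125 to 0.212) in the Tagln- and Acta2-led class, so the lower class had less Col4a3 for its Col4a4. Over all keratinocytes, Col4a3 did not meet the requirement of an interval above the immune-like level in both libraries.

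Col4a1 and Col4a2 were highest in the Tagln- and Acta2-led class, at 752 and 479 CPM in control and 657 and 469 CPM in Gli2EKO, and next in the HF1 ORS-like class (529 and 358 CPM, 517 and 380 CPM). These levels were near those of fibroblast-like cells, and at the other end hair shaft-like cells held 7.24 and 4.63 CPM of Col4a1. Col4a5 and Col4a6, whose paired chains occur in the epidermal basement membrane, were spread more evenly. Col4a5 was at 119 and 118 CPM in ORS/SC-like cells, at 108 and 95.9 CPM in basal cells of the interfollicular epidermis (IFE) and lowest in the sebaceous gland (SG)-like class, at 20.4 and 17.2 CPM. In the control library, ORS/SC-like and IFE basal-like cells did not differ in Col4a5 beyond counting error (log2 0.14, -0.06 to 0.34), whereas in Gli2EKO the level was higher in ORS/SC-like cells (0.30, 0.05 to 0.53). For Col4a6, the control classes did not differ beyond counting error either (0.07, -0.17 to 0.32).

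Col18a1, Col12a1 and Col16a1 were highest in the HF1 ORS-like class of both libraries. Col18a1 was at 238 and 216 CPM there and at 212 and 214 CPM in the Tagln- and Acta2-led class, and in Gli2EKO the log2 difference between these classes was 0.02 (-0.16 to 0.19). Col12a1 was at 168 and 174 CPM in HF1 ORS-like cells and 144 CPM in the ORS/SC-like cells of each library. Col5a2 and Col5a1 were highest in ORS/SC-like cells, at 114 and 73.3 CPM and at 64.4 and 63.2 CPM, without Col1a1 standing out there (50.9 and 21.5 CPM). Col28a1, a chain known from peripheral nerve, was found almost entirely in 1 keratinocyte class, the companion and suprabasal HF-like cells, at 29.1 and 35.9 CPM against no more than 0.821 CPM in any other keratinocyte class; in Gli2EKO, 1 cell held 55.0% of its 40 UMIs there.

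**Figure D4:**
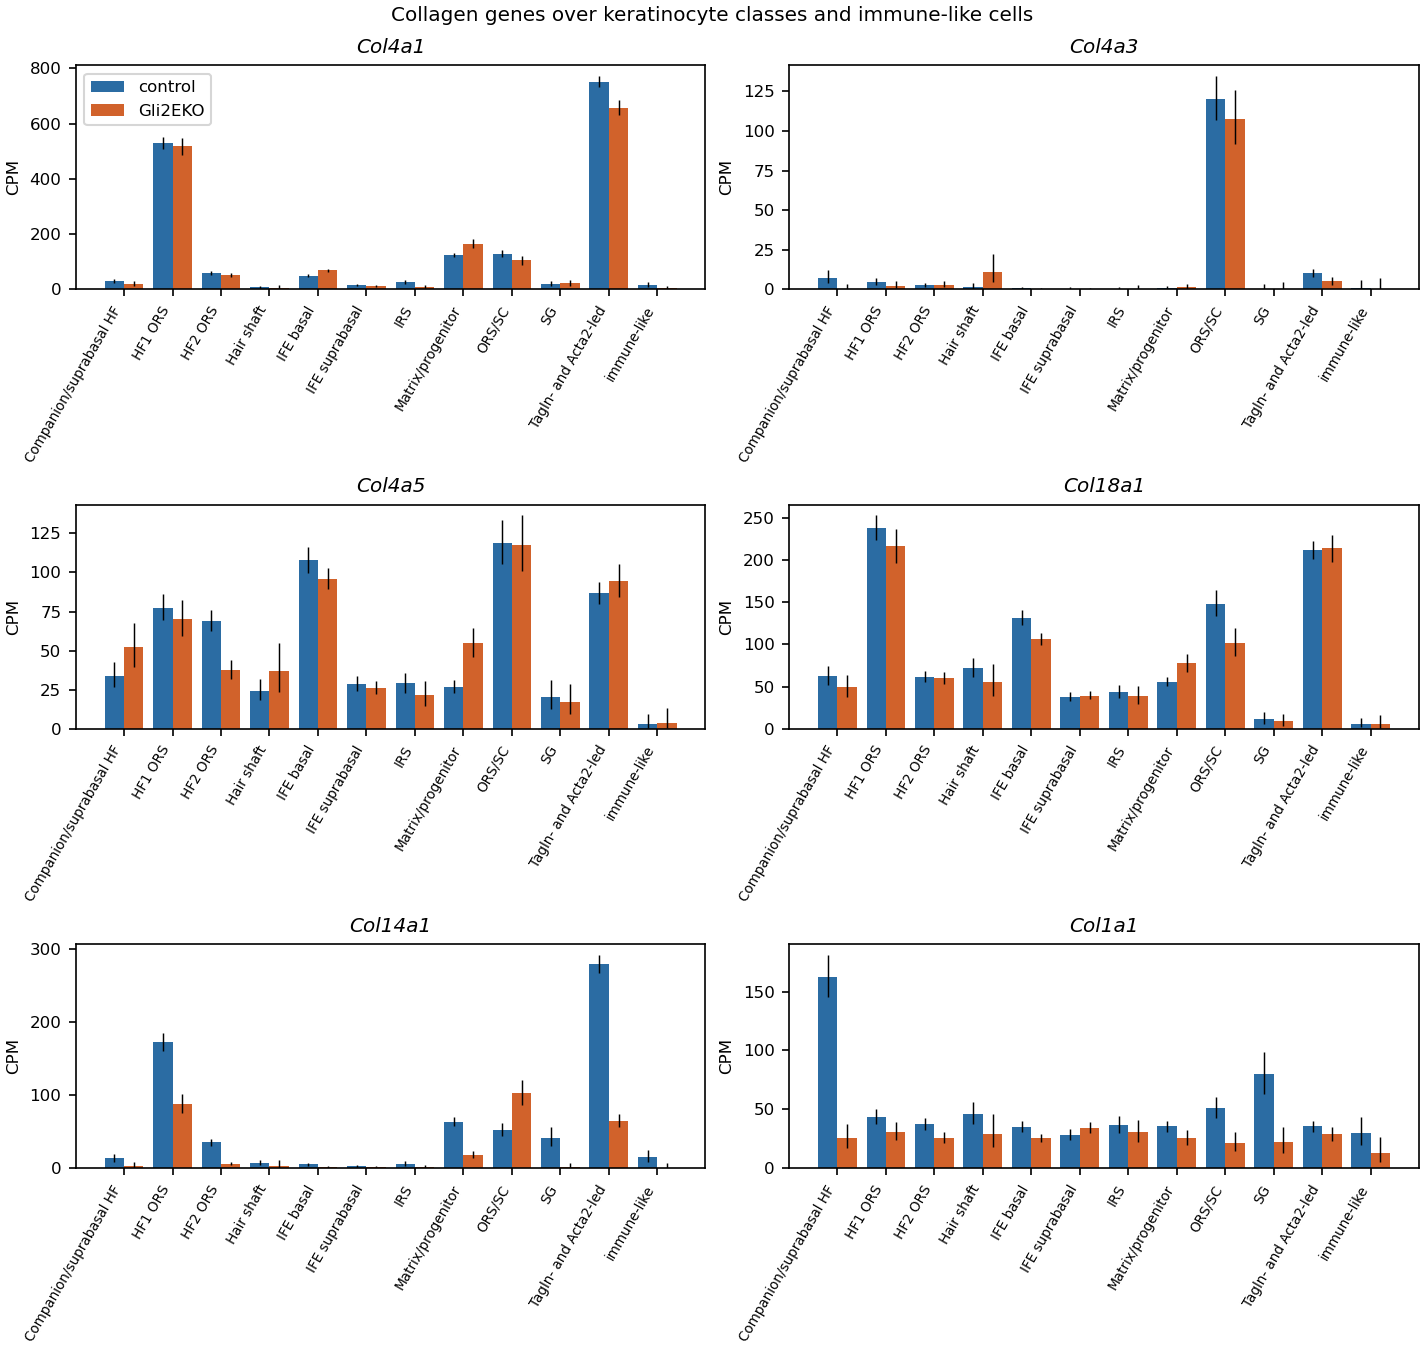
Levels (CPM with 95% counting intervals) of collagen genes across the 11 keratinocyte classes and immune-like cells in control and Gli2EKO. The genes drawn are Col4a1, Col4a3, Col4a5, Col18a1, Col14a1 and Col1a1. Col4a3 peaks in ORS/SC-like cells, and Col4a1 in the Tagln- and Acta2-led class, followed by the HF1 ORS-like class.

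Other cell types also carried collagens, with few cells each. In 23 control endothelial-like cells, Col4a1 stood at 3409 CPM and Col4a2 at 2004 CPM, and in the 10 Gli2EKO cells at 874 and 713 CPM, where 1 cell held 56.3% of the Col4a1 UMIs. In 26 control and 20 Gli2EKO smooth muscle- and pericyte-like cells, Col4a1 was at 1981 and 2037 CPM and Col5a3, another type V chain, at 374 and 425 CPM. Col6a5 was seen mostly in this class, at 108 and 163 CPM (33 control UMIs). In Schwann-like cells (42 and 10), Col28a1 was at 389 and 588 CPM and Col8a1, a chain of the hexagonal network, at 472 and 1209 CPM. In Gli2EKO, 1 cell held 50.9% of these Col28a1 UMIs and 1 cell 40.4% of the Col8a1 UMIs. The fibrillar genes Col3a1 (2032 and 2861 CPM) and Col1a2 (1433 and 1364 CPM) were higher than both in this class. Melanocyte-like cells (105 and 68) held Col12a1 at 103 and 109 CPM and Col16a1 at 78.4 and 76.3 CPM, with Col1a1 at 33.8 and 20.3 CPM, near its level in immune-like cells.

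The enzymes and partners of collagen were counted by the same limit of 4-fold in both libraries, beside the 10.3% and 8.21% of all genes given above. Of 27 genes for synthesis and processing, all of which could be compared, 16 were higher in fibroblast-like cells and 1, Tll1, a procollagen protease, was higher in keratinocytes. Serpinh1, the chaperone that binds procollagen, was at 1343 CPM in control fibroblast-like cells against 112 CPM in keratinocytes, and Pcolce, an enhancer of procollagen cleavage, at 533 against 3.10 CPM. The general folding factors P4hb (402 against 183 CPM) and Ppib (827 against 400 CPM) were less than 4-fold apart. All 5 cross-linking genes of the lysyl oxidase family were higher in fibroblast-like cells, Lox at 222 against 1.32 CPM. Of 7 receptor genes compared, Itga11, Ddr2 and Mrc2 were higher in fibroblast-like cells and Itga2 and Ddr1 in keratinocytes. The related receptors Ddr2 (230 against 3.25 CPM) and Ddr1 (16.5 against 73.8 CPM) had opposite orders in the control library. Higher in fibroblast-like cells were also 6 of 7 degradation genes and 8 of 10 partner genes; of the latter, Lum, Fbn1 and Dpt are among the markers that named the fibroblast-like cells, so their direction was set by the naming.

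The last comparison set Gli2EKO beside control in fibroblast-like cells. Over 33 collagen genes, the median log2 ratio was -0.23, against -0.0026 over all 14556 genes compared, and 27 of the 33 were below 0. None was at least 2-fold higher (0 of 33, against 1.73% of all genes), and 2 (6.06%, against 2.21%) were at least 2-fold lower, Col8a2 and Col28a1. The counting interval lay below 0 for 19 genes (57.6%, against 13.8% of all genes) and above 0 for 2, Col25a1 and Col26a1 (6.06%, against 13.3%). As both libraries are single, such a shift cannot be told apart from a difference between 2 libraries of 1 genotype.

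Col8a2, a hexagonal network chain, was at 13.8 CPM in control and 3.58 CPM in Gli2EKO (log2 -1.95, -2.64 to -1.32). Col28a1 was at 2.60 and 0.298 CPM, from 26 and 2 UMIs, and 1 control cell held 42.3% of the 26. Col11a1 was at 830 and 429 CPM (-0.95, -1.01 to -0.89) and was lower in 8 of 9 sub-clusters, with the interval below 0 in 7 and above 0 in 1, sub-cluster 6. When the Gli2EKO sub-clusters were weighted to their control shares, the Col11a1 log2 ratio was -0.59. Col6a6 (74.3 and 40.0 CPM) and Col4a6 (11.9 and 6.86 CPM) followed. The type I and III genes differed by little: Col1a1 by -0.22 (-0.24 to -0.20) and Col3a1 by -0.09 (-0.10 to -0.07). Neither had 1 direction in all sub-clusters: the Col1a1 interval lay below 0 in 5 of 9 and above 0 in 2, and that of Col3a1 below 0 in 4 and above 0 in 3. Col4a1 (894 and 582 CPM, -0.62, -0.68 to -0.57) was lower in all 9 sub-clusters, with the interval below 0 in 5.

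Col26a1, a secreted chain, had the highest ratio. It was at 35.1 CPM in control and 69.3 CPM in Gli2EKO fibroblast-like cells (0.98, 0.78 to 1.19), with the interval above 0 in 5 of 8 sub-clusters and below 0 in 1. Col25a1 followed at 50.8 and 62.8 CPM (0.31, 0.12 to 0.50), then Col13a1 at 14.3 and 16.6 CPM and Col19a1 at 23.8 and 24.8 CPM, whose intervals included 0. Col25a1 was at 0.00 under the mean of per-cell CPM, so that its ratio depended on how cells were weighted. Among 27 collagen genes in papilla-like cells, 10 intervals lay above 0 (37%, against 7.46% of all genes) and 3 below (11.1%, against 7.07%). Among 32 in the other fibroblast-like cells, 4 lay above (12.5%, against 14.2%) and 21 below (65.6%, against 14%). The difference between these groups was not tested. Col1a1 was at 334 and 445 CPM in papilla-like cells (0.41, 0.23 to 0.59), against 9286 and 7866 CPM in the others, and Col6a2 was at 330 and 577 CPM in papilla-like cells (0.81, 0.64 to 0.97).

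**Figure D5:**
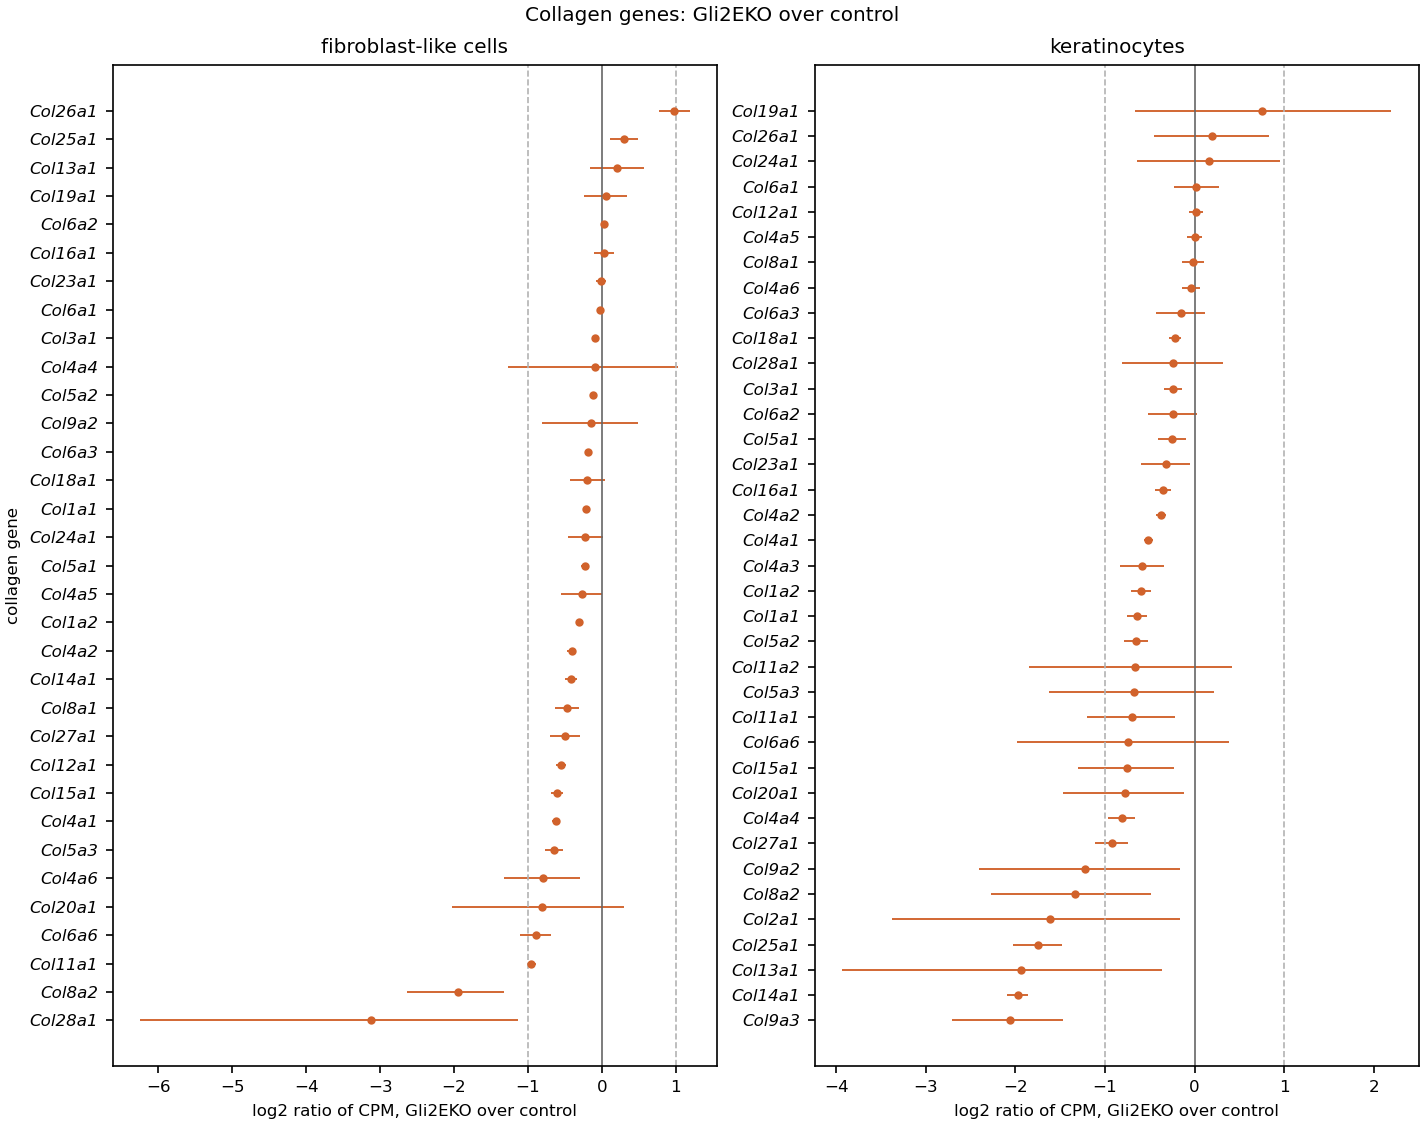
Log2 ratio of Gli2EKO over control for each collagen gene in fibroblast-like cells and in keratinocytes, with 95% counting intervals; dashed lines mark 2-fold. Most points lie left of 0 in both classes; Col26a1 is the highest in fibroblast-like cells, and Col9a3 and Col14a1 have the lowest ratios in keratinocytes.

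In keratinocytes, in which Gli2 is targeted, the median log2 ratio over 37 collagen genes was -0.58, against -0.14 over all 18498 genes compared, and 31 of the 37 were below 0. None was at least 2-fold higher (0 of 37, against 2.27% of all genes) and 7 (18.9%, against 4.56%) were at least 2-fold lower: Col9a3, Col25a1, Col9a2, Col8a2, Col13a1, Col14a1 and Col2a1. Few UMIs, in control and Gli2EKO, lay behind Col9a2 (32 and 10), Col13a1 (21 and 4) and Col2a1 (21 and 5). For Col13a1, 1 control cell held 42.9% of the 21. The interval lay below 0 for 23 genes (62.2%, against 36.2% of all genes) and above 0 for none (against 15% of all genes). In immune-like cells, the measure of free RNA, Col1a1 was at 30.0 CPM in control and 12.9 CPM in Gli2EKO from 28 and 7 UMIs, with an interval that included 0 (-1.22, -2.66 to 0.008). Col1a2 was lower there (-1.54, -2.76 to -0.49), and Col3a1 differed by -0.33 (-1.20 to 0.49). In keratinocytes, Col1a1 was at 43.7 and 28.0 CPM (-0.64, -0.76 to -0.53). The part of free RNA in the other ratios was not tested. Over the 13 genes that stood above immune-like cells in both libraries, the median log2 ratio was -0.35 and 11 of the 13 were below 0; over the 24 others it was -0.67, with 20 below 0.

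Class composition moved as well, since IFE basal-like cells made up 11.3% of control and 25.2% of Gli2EKO keratinocytes, and matrix and progenitor-like cells 14.1% and 7.55%. With Gli2EKO classes weighted to their control shares, the median was -0.35 and 5 genes were at least 2-fold apart. Col4a1, at 205 and 143 CPM (-0.52, -0.57 to -0.47), came to -0.07 under this weighting.

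Col14a1 was the abundant collagen with the largest difference. It was at 77.5 CPM in control and 19.7 CPM in Gli2EKO keratinocytes (-1.98, -2.10 to -1.86), and at -1.50 with the classes weighted. Of 10 classes with enough UMIs, 9 were lower in Gli2EKO, 8 with the interval below 0. The Tagln- and Acta2-led class was at 279 and 64.4 CPM and the HF1 ORS-like class at 173 and 87.7 CPM. ORS/SC-like cells went the other way, from 52.1 to 102 CPM. Col14a1 was also lower outside the keratinocytes. In immune-like cells it had 14 UMIs (15.0 CPM) in control and 0 UMIs in Gli2EKO, with the upper end of the log2 interval at -0.95. In fibroblast-like cells it was at 400 and 299 CPM. The part of free RNA in the keratinocyte ratio was not tested. After thinning, 9.22% of control (8.26 to 10.3%) and 3.95% of Gli2EKO keratinocytes (3.19 to 4.83%) held a Col14a1 UMI. Of the immune-like cells, 2 of 92 in control and 0 of 45 in Gli2EKO did, where a floor of 3 cells would be a share of 6.67%. Without thinning the keratinocyte shares were 23.0% and 13.7%.

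Col25a1 was at 13.5 and 4.02 CPM (-1.75, -2.03 to -1.48), with the interval below 0 in 2 of the 3 classes that could be compared. Col9a3, at 3.36 and 0.804 CPM, and Col8a2, at 1.13 and 0.447 CPM, were low genes, with 27 and 15 Gli2EKO UMIs. At the other end, Col12a1 (0.01, -0.06 to 0.09), Col6a1, Col24a1 and Col26a1 had intervals that included 0, as did Col4a5 (0.00, -0.08 to 0.08) and Col4a6 (-0.04, -0.13 to 0.06). Col4a4 was at 26.2 and 14.9 CPM (-0.81, -0.96 to -0.66), lower in 6 of 8 classes. Its interval lay below 0 in 4 classes and above 0 in 1, the hair shaft-like cells (2.01, 1.13 to 2.90). In matrix and progenitor-like cells, 11 of 21 intervals lay above 0 (52.4%, against 12.4% of all genes), that of Col12a1 at 11.1 and 33.6 CPM included, and 2 below (9.52%, against 17.6%); the larger of its clusters was led by Dcn, a gene best known from fibroblasts, and the part of this in the values was not tested. Of the enzymes and partners, none of the genes compared was at least 2-fold apart in fibroblast-like cells except Pcolce2, with 15 and 22 UMIs. In keratinocytes, Adamts2 and Fbn1 were at least 2-fold lower and the collagenase Mmp13 (4 and 31 UMIs) and Mmp9 (15 and 42 UMIs) at least 2-fold higher, and the collagen receptor subunit Itga1 was at 93.6 and 33.1 CPM (-1.50, -1.60 to -1.40).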

How the data were processed

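Back skin cells of 2 libraries, 1 per genotype, were analysed. The deposited files hold counts: UMIs per gene and barcode, which the authors made with Cell Ranger 9.0.1 (10x 3′ chemistry, build GRCm39). Barcodes with more than 1000 and fewer than 8000 genes and under 15% mitochondrial UMIs were kept. The 8% of cells per library with the highest Scrublet scores (scanpy 1.11.5) were removed as doublets. Cells were clustered in Seurat 5.3.0 (R 4.3.3; 2000 variable genes without collagens, 20 components, resolution 0.5) and named from fixed marker lists. Median kept cells had 11829.5 (control) and 11936 (Gli2EKO) UMIs. UMIs were summed per class and library into CPM. Genes with at least 20 UMIs over the groups compared, in each library, were compared by ratio: 4-fold between cell types, 2-fold otherwise. Intervals are exact Poisson, conditional binomial or Clopper-Pearson (95%), cover counting error only, and were computed with scipy 1.17.1 and tested on simulated data. No test across genotypes was made, because each has 1 library.

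Every collagen gene with at least 20 UMIs could be named, with full values for the 8 highest in fibroblast-like cells, those with at least 100 UMIs in keratinocytes and a higher level there than in fibroblast-like cells, and the 4 largest and 4 smallest genotype ratios per cell type among genes with at least 50 UMIs. Members and lists were chosen with earlier results of these data known. Alternatives covered doublet removal, the mitochondrial limit, clustering, class definition, CPM scaling, UMI and fold limits, subtraction of the immune-like level, weighting of classes and thinning. Gene positions are from GENCODE M39 on GRCm39; the authors counted on GENCODE M30.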

Additional observations from a re-analysis of the deposited data

Results flagged for a closer look

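Col25a1, a membrane-spanning chain, went in opposite directions between genotypes in fibroblast-like cells and keratinocytes. It was at 50.8 CPM in control and 62.8 CPM in Gli2EKO fibroblast-like cells and at 13.5 and 4.02 CPM in keratinocytes, so that the log2 ratios of Gli2EKO over control differed by 2.05. In fibroblast-like cells the log2 ratio came to 0.00 as a mean of per-cell CPM, where no opposite direction was left. With 1 library per genotype the difference was not tested.

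Col14a1 went in opposite directions between keratinocyte classes. It was higher in Gli2EKO ORS/SC-like cells (log2 0.97, 0.62 to 1.32) and lower in HF2 ORS-like cells (-2.54, -3.18 to -1.96), a difference of 3.52 that was not tested either. Col14a1 was picked because its ratio over all keratinocytes was also at least 2-fold. Such opposite intervals between classes were not particular to it, and Col4a4, Col27a1, Col23a1 and Col8a1 were among the other genes that had them.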

How the results depend on the processing

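No paired analysis was possible because each genotype has 1 library. Counts of collagen genes at least 4-fold higher in fibroblast-like cells ran from 21 to 26 over the alternatives. The collagen share of fibroblast-like UMIs (control, then Gli2EKO) was 3.38% and 2.67% with the automatic Scrublet threshold, 3.04% and 2.65% without doublet removal, 3.46% and 2.97% with a 10% mitochondrial limit, 3.43% and 2.88% with each library clustered on its own, 3.51% and 3.03% with classes from marker UMIs, 3.66% and 3.12% without mitochondrial and collagen UMIs in the total, and 3.12% and 2.62% as a mean over cells; it was lower in Gli2EKO in each. With the automatic threshold, the fibroblast-like median genotype ratio was -0.32, 4 genes passed 2-fold there, and Col3a1 in keratinocytes turned from below 0 to 0.057. That threshold called 260 control and 5 Gli2EKO cells doublets, so it filtered the libraries unequally. Requiring 50 UMIs left 1 gene past 2-fold in fibroblast-like cells and 4 in keratinocytes, and a 1.5-fold limit gave 10 and 19. Genes at least 4-fold higher in keratinocytes than in fibroblast-like cells in both libraries numbered 1 without doublet removal. With the limit set at 2-fold instead, they numbered 5. Of 40 gene and library pairs, the highest keratinocyte class stayed the same in 14 without doublet removal, in 17 at resolution 0.3 and in 17 with each library clustered on its own, so class order depended on the clustering. Thinning to 5000 UMIs gave keratinocyte shares (control, then Gli2EKO) of 34.4% and 31.8% for Col4a1, 17.6% and 8.97% for Col14a1 and 16.5% and 11.8% for Col1a1. The causes were not tested. Of the values for whole comparisons, 31 moved and 77 did not, and of those for single genes, 174 moved, 1 reversed and 1047 did not.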
